A study of Homo sapiens with 9 samples.

Results

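The liver X receptors NR1H2 and NR1H3 and 6 of their target genes for sterol efflux and lipid remodelling were followed in DU145, a human prostate carcinoma cell line. The genes were chosen by symbol (NR1H2, NR1H3, ABCA1, ABCG1, APOE, APOC1, MYLIP and LPCAT3), and all 8 were found among the 16772 genes of the deposited table. The groups, with 3 libraries each, were cells given H93 at 20 µM, cells given SAHA at 500 nM, and cells given the solvent DMSO alone, each for 6 days with fresh medium every day. SAHA, or vorinostat, inhibits histone deacetylases, and the series title describes H93 as directed at UHRF1, a protein that brings the maintenance DNA methyltransferase to replicated DNA. Both compounds were dissolved in DMSO, all cells carry the genotype label WT, and the doses in the labels are read as micromolar and nanomolar. Values are FPKM, which corrects read counts for transcript length and library size, so that levels can roughly be set beside each other between genes. It does not correct for reads of overlapping genes or near-identical copies. No FPKM enters the rule, but the list was drawn up with results of these libraries known, among them the fall of APOC1 with H93. Differences and adjusted p-values of the members therefore describe these libraries and are no independent evidence for the list.

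Liver X receptors are nuclear receptors that sense oxidised cholesterol and work as pairs with a retinoid X receptor. Without ligand the pair holds corepressors at its target genes, and with ligand it recruits coactivators. The targets move cholesterol out of the cell through ABC transporters onto apolipoproteins, lower the uptake of lipoproteins through the ubiquitin ligase MYLIP, and change membrane phospholipids through LPCAT3. The pathway is best known in macrophages and liver.

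Absolute read depth was unknown, and relative depths read from low values lay between 0.8754 and 1 of the deepest library. All 5 epithelial markers were expressed, but not at one level across groups. The keratin KRT8 averaged 730 FPKM in H93 cells, 714 in SAHA cells and 676 in DMSO cells, KRT18 663 FPKM in H93 cells, 694 in SAHA cells and 682 in DMSO cells, and KRT19 420 FPKM in H93 cells, 326 in SAHA cells and 169 in DMSO cells. The epithelial adhesion gene EPCAM averaged 30.4 FPKM in H93 cells, 37.8 in SAHA cells and 67.1 in DMSO cells, and the E-cadherin gene CDH1 4.34 FPKM in H93 cells, 5.09 in SAHA cells and 13.3 in DMSO cells. KRT19 was thus higher and EPCAM and CDH1 lower in every treated library than in every DMSO library, and the part of this in the results was not tested. Of 5 macrophage and leukocyte markers, 2 reached 1 FPKM in some library (CD14 and CD68), and PTPRC, CSF1R and LYZ were at or near 0 in every group. The summed level of the 5, nearly all of it from the lysosomal gene CD68, ran from 28.4 to 30.2 FPKM with H93, 32.7 to 35.5 with SAHA and 22.7 to 23.4 with DMSO, and its part in the results was not tested. The labels do not say that libraries of a group came from separate cultures, so each p-value rests on the variation among these libraries, which could be technical only.

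The ranges of members next to each other in level did not overlap in any group, so each group gave a full order of FPKM values. In H93 cells the order from high to low was LPCAT3, NR1H2, APOE, MYLIP, APOC1, NR1H3, ABCG1 and ABCA1. In SAHA cells NR1H2 stood above LPCAT3, and the rest of the order was that of H93 cells. In DMSO cells the order was NR1H2, LPCAT3, APOC1, MYLIP, APOE, NR1H3, ABCA1 and ABCG1. APOE and APOC1 thus stood on opposite sides of MYLIP in treated and in solvent cells.

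**Figure D1:**
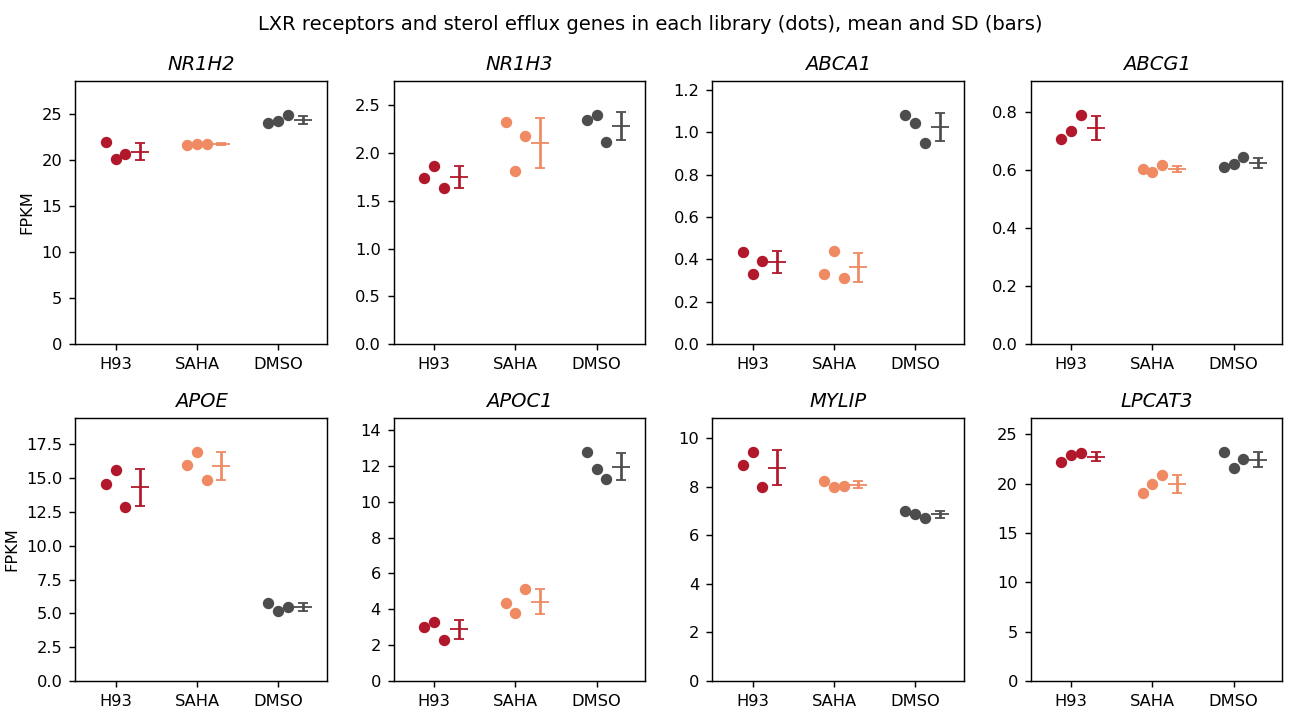
FPKM of the 8 genes in each library (dots) with the mean and SD of each group beside them (n = 3), one panel per gene with its own axis from 0. APOE was at least 12.8 in every H93 and SAHA library and at most 5.78 in DMSO libraries, whereas APOC1 was at most 5.15 in the treated libraries and at least 11.3 in DMSO libraries.

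A filter on low values (at least 1 FPKM in at least 3 of the 9 libraries) kept 11525 genes and 6 of the 8 members, and these 6 reached 1 FPKM in every library. With H93 against DMSO, 2 of the 6 were higher and 3 lower at an adjusted p under 0.05 (limma, Benjamini-Hochberg). In this comparison 69.8% of kept genes passed, 34.9% higher and 35.0% lower, so passing as such did not set the members apart. With SAHA against DMSO, 2 were higher and 3 lower, where 58.8% of kept genes passed, 27.4% higher and 31.4% lower. APOE and APOC1 also reached a log2 difference of 1 in both comparisons, as did 2.28% of kept genes with H93 and 1.12% with SAHA. With a pseudocount of 5 in place of 1, APOC1 with H93 alone still reached it, at -1.11, while APOE was at 0.88 with H93 and 0.997 with SAHA, and APOC1 at -0.85 with SAHA. ABCA1 and ABCG1 fell under the filter, and their values come from a fit to all 16772 genes. In that fit ABCG1 was higher and ABCA1 lower with H93, as were 27.1% and 25.5% of genes, and ABCA1 was lower with SAHA, as were 22.2%. Ranges of H93 and DMSO libraries stood apart (no overlap) in 7 of the 8 members, and those of SAHA and DMSO in 6, against 58.7% and 51.3% of all genes. The median log2 difference of the 6 kept members was -0.10 with H93 and -0.12 with SAHA, and that of all kept genes was 0.0016 and -0.015. The H93 and SAHA comparisons share the DMSO libraries and are not independent of each other.

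**Figure D2:**
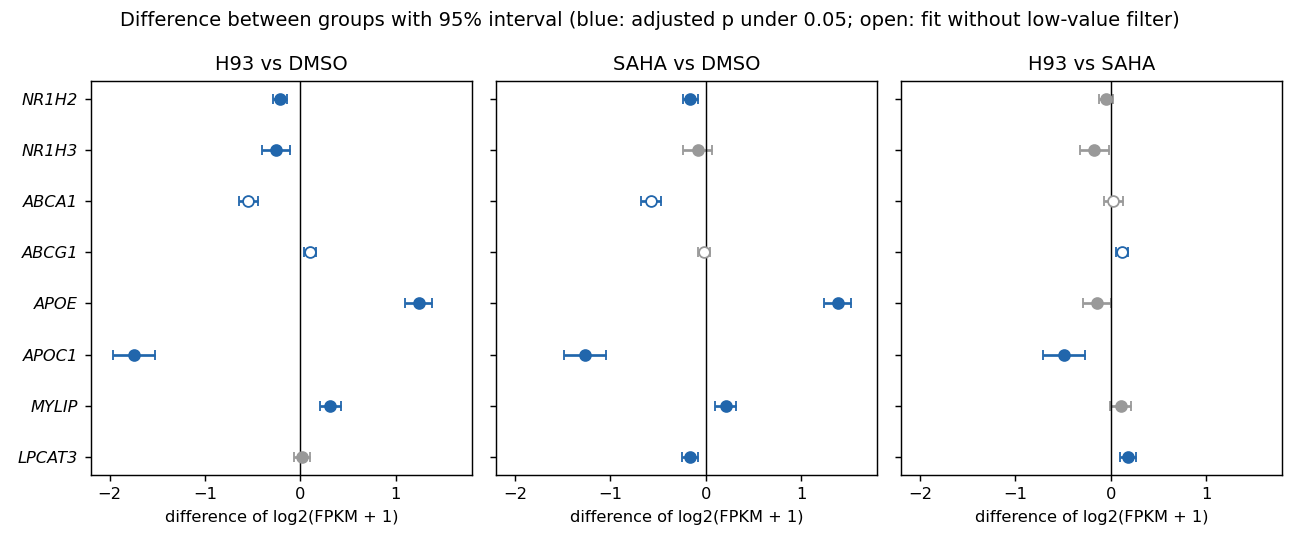
Difference of log2(FPKM + 1) for each member in 3 comparisons, first group minus second, with the 95% interval of the limma fit (n = 3 per group, blue where the adjusted p was under 0.05, open for the fit without the filter). APOE lies at 1.24 and 1.39 against DMSO and APOC1 at -1.75 and -1.26, and the other members lie between -0.57 and 0.31.

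NR1H2 encodes LXR beta, the form found in nearly all tissues, and lies on chromosome 19 from 50329653 to 50382982 (GRCh38, GENCODE release 29, as for all positions of genes below). It stood at 22.00, 20.1 and 20.7 FPKM in H93 cells, at 21.6, 21.8 and 21.8 in SAHA cells, and at 23.98, 24.2 and 24.9 in DMSO cells. Every treated library was below every DMSO library, and the treated groups overlapped each other. NR1H2 fell with H93 by a log2 difference of -0.21 (SE 0.03401, adjusted p = 0.000129, limma) and with SAHA by a log2 difference of -0.16 (SE 0.03401, adjusted p = 0.00154, limma). H93 minus SAHA was -0.05, with an interval of -0.13 to 0.02. The span of NR1H2 overlaps NAPSA on the opposite strand, at 0.476 FPKM in H93 cells, 0.752 in SAHA cells and 4.04 in DMSO cells. Whether counting used the strand is not given in the sources used here, and the part of NAPSA in the NR1H2 values was not tested.

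NR1H3 encodes LXR alpha, the form known from liver, fat, gut and macrophages, on chromosome 11 from 47248300 to 47269032. It stood at 1.74, 1.87 and 1.63 FPKM in H93 cells, at 2.32, 1.81 and 2.18 in SAHA cells, and at 2.34, 2.39 and 2.11 in DMSO cells. The H93 libraries were below all DMSO libraries, and the SAHA range overlapped both. NR1H3 fell with H93 by a log2 difference of -0.26 (SE 0.0688, adjusted p = 0.00503, limma). With SAHA the difference was -0.08 (interval -0.23 to 0.07, adjusted p = 0.317, limma). H93 minus SAHA was -0.17 (interval -0.32 to -0.02, adjusted p = 0.0733, limma), and -0.24 without SAHA replicate 2 (adjusted p = 0.0188). NR1H2 exceeded NR1H3 within each library, by 12.6, 10.8 and 12.7 times in H93 cells, 9.31, 12.01 and 9.98 times in SAHA cells, and 10.2, 10.1 and 11.8 times in DMSO cells. The groups overlapped in this ratio. NR1H3 overlaps ACP2 on the opposite strand, at 22.1 FPKM in H93 cells, 20.5 in SAHA cells and 20.3 in DMSO cells, and its part in the NR1H3 values was not tested.

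ABCA1 carries cholesterol and phospholipid to lipid-poor apolipoproteins and is among the most studied LXR targets, on chromosome 9 from 104781002 to 104928237. It stood at 0.437, 0.332 and 0.394 FPKM in H93 cells, at 0.334, 0.439 and 0.314 in SAHA cells, and at 1.08, 1.04 and 0.9498 in DMSO cells. The treated groups overlapped each other, and every treated library was below every DMSO library. Its mean FPKM was 0.379 of the DMSO mean with H93 and 0.354 of it with SAHA. On the log2(FPKM + 1) scale, which understates changes at low levels, ABCA1 fell by a log2 difference of -0.54 with H93 (SE 0.04505, adjusted p = 1.14e-05, limma without the filter) and by a log2 difference of -0.57 with SAHA (SE 0.04505, adjusted p = 1.56e-05). With a pseudocount of 0.1 in place of 1 the differences were -1.21 and -1.29, and with 5 they were -0.16 and -0.17. H93 minus SAHA was 0.03, with an interval of -0.08 to 0.13.

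The 250 bases before the RefSeq start of ABCA1 (GRCh38.p14, chr9:104928156-104928405, minus strand) are shown because the LXR element known for this gene lies close to its start. The GENCODE start differs from the RefSeq start. The GENCODE span of ABCA1 ends at 104928237, so part of this stretch lies inside that span. Capitals mark a match to the motif of the LXR and RXR pair, a direct repeat of AGGTCA with 4 free bases between the copies (DR4, either strand, at most 2 mismatches over the 12 fixed letters), and an E-box (CACGTG).
ABCA1: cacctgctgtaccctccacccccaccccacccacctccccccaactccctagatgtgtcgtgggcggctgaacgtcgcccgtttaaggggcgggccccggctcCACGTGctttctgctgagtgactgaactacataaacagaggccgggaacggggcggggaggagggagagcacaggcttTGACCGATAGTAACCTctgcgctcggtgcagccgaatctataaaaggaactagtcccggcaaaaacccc
The DR4 match spans 69 to 54 bases before the start, reads AGGTTACTATCGGTCA on its own strand and has 2 mismatches. The E-box spans 147 to 142 bases before the start and does not overlap it. RefSeq windows of 300 bases, with 250 before a start and 50 after it, covered 7 members in 12 windows, and ABCG1 had none. Of the 12, the window of ABCA1 alone held a DR4 match and it alone held an E-box, while 2.34% and 7.26% of all 35116 windows do. A match describes letters and does not measure receptor binding, and the lack of one says nothing about bases outside these windows.

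ABCG1, which passes cholesterol on to mature lipoprotein particles, lies on chromosome 21 from 42199689 to 42297244. It stood at 0.707, 0.733 and 0.787 FPKM in H93 cells, at 0.604, 0.594 and 0.615 in SAHA cells, and at 0.611, 0.619 and 0.643 in DMSO cells. The H93 libraries were above all others, and SAHA and DMSO libraries overlapped. ABCG1 rose with H93 by 0.10 on the log2 scale (SE 0.0267, adjusted p = 0.0109, limma without the filter), a call lost with a pseudocount of 0.1 (adjusted p = 0.0766) and with quantile normalization (adjusted p = 0.125). SAHA minus DMSO was -0.02, with an interval of -0.08 to 0.04. H93 was above SAHA by 0.12 (adjusted p = 0.0168, limma), lost with a pseudocount of 0.1 (adjusted p = 0.0855). The ratio of ABCA1 to ABCG1 within a library was 0.618, 0.453 and 0.501 in H93 cells, 0.552, 0.7397 and 0.5102 in SAHA cells, and 1.77, 1.68 and 1.48 in DMSO cells. It was below 1 in all treated libraries and above 1 in all DMSO libraries.

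APOE and APOC1 moved in opposite directions although they are direct neighbours. APOE, a ligand of lipoprotein receptors and an acceptor of effluxed cholesterol, lies on chromosome 19 from 44905754 to 44909393, and APOC1, a small apolipoprotein known to hinder the uptake of lipoproteins, on chromosome 19 from 44914247 to 44919349. Both are on the plus strand, with 4853 bases between them. A further annotated gene on the same strand, AC011481.3, overlaps both spans and is not listed by that name in the deposited table. Its part in the APOE and APOC1 values was not tested. APOE stood at 14.5, 15.6 and 12.8 FPKM in H93 cells, at 15.96, 16.9 and 14.8 in SAHA cells, and at 5.78, 5.17 and 5.47 in DMSO cells. Every treated library was above every DMSO library, and the treated groups overlapped. Mean APOE was 2.62 times the DMSO mean with H93 and 2.91 times with SAHA. APOE rose by 1.24 on the log2 scale with H93 (SE 0.0655, adjusted p = 5.87e-09, limma) and by 1.39 with SAHA (SE 0.0655, adjusted p = 5.1e-09), number 76 and number 31 from the highest of 11525 genes. H93 minus SAHA was -0.14 (interval -0.29 to -0.0016, adjusted p = 0.113, limma), and -0.20 without H93 replicate 2 (adjusted p = 0.0436).

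APOC1 stood at 3.03, 3.31 and 2.29 FPKM in H93 cells, at 4.33, 3.81 and 5.15 in SAHA cells, and at 12.8, 11.8 and 11.3 in DMSO cells. No group overlapped another, with H93 lowest and DMSO highest. Its mean was 0.2403 of the DMSO mean with H93 and 0.3703 of it with SAHA. APOC1 fell by a log2 difference of -1.75 with H93 (SE 0.101, adjusted p = 1.35e-08, limma) and by a log2 difference of -1.26 with SAHA (SE 0.101, adjusted p = 5.0e-07), number 8 and number 15 from the lowest of 11525 genes. H93 minus SAHA was -0.49 (SE 0.101, interval -0.71 to -0.27, adjusted p = 0.00383, limma). The doses differ, so this sets 20 µM of H93 beside 500 nM of SAHA only. APOC1 has a pseudogene copy, APOC1P1, which was not analysed here, and how reads of near-identical copies were assigned is unknown.

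The ratio of APOE to APOC1 within a library was 4.79, 4.71 and 5.62 in H93 cells, 3.68, 4.45 and 2.88 in SAHA cells, and 0.452, 0.437 and 0.485 in DMSO cells. It was above 1 in all treated libraries and below 1 in all DMSO libraries. The summed FPKM of the pair was 17.6, 18.9 and 15.1 in H93 cells, 20.3, 20.8 and 19.99 in SAHA cells, and 18.6, 17.01 and 16.8 in DMSO cells. The H93 sums overlapped the DMSO range, and the SAHA sums were above it. An exact permutation test of 3 against 3 libraries cannot go below p = 0.1 and was not run on these ratios. In bulk RNA, fewer cells that express a gene and less of its RNA per cell cannot be told apart.

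The 250 bases before the first RefSeq start of APOE (chr19:44905546-44905795) and before that of APOC1 (chr19:44914422-44914671), both GRCh38.p14 and plus strand, are shown for their CpG sites, where DNA methylation is placed. RefSeq and GENCODE starts differ here as well. The APOC1 stretch lies wholly inside the GENCODE span of APOC1, which begins at 44914247. The last part of the APOE stretch lies inside the GENCODE span of APOE, which begins at 44905754. Which start these cells use was not tested. Capitals mark each CpG.
APOE: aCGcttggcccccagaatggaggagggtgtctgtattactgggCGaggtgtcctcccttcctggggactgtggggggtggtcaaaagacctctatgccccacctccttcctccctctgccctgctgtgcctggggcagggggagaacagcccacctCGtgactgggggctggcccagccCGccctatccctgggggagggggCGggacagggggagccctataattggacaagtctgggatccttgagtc
APOC1: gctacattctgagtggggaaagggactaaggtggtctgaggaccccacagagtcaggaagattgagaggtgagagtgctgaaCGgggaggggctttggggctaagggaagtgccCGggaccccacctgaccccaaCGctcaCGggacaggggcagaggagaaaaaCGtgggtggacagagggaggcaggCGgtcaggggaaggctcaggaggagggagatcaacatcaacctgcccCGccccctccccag
There are 5 in the APOE stretch and 7 in the APOC1 stretch, and each of the full 300-base windows holds 8. The single windows of ABCA1, NR1H2, MYLIP and LPCAT3 hold 23, 22, 29 and 30, and those of all genes have a median of 14 (quartiles 4 and 28). APOE has further windows with 12 and 11, and the 4 windows of NR1H3 hold between 2 and 26. Methylation was not measured in these samples.

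Of a list of 12 genes around the pair, 10 passed the filter. Among the 10, 2 rose and 6 fell with H93, and 0 rose and 6 fell with SAHA. The shares over all kept genes were 34.9% up and 35.0% down with H93, and 27.4% up and 31.4% down with SAHA. TOMM40, the mitochondrial import pore gene next to APOE, averaged 94.1 ± 2.38 FPKM in H93 cells, 92.9 ± 1.95 in SAHA cells and 102 ± 3.47 in DMSO cells, and fell, with log2 differences of -0.12 with H93 and -0.14 with SAHA. The cell adhesion gene NECTIN2 fell, with log2 differences of -0.17 with H93 and -0.23 with SAHA, and BCAM, a laminin receptor, with -0.13 and -0.39. BCL3, a regulator of NF-kB, fell, with log2 differences of -0.74 with H93 and -0.47 with SAHA, CBLC with -0.56 and -0.45, and CLASRP with -0.28 and -0.17. CLPTM1 averaged 60.4 ± 0.5201 FPKM in H93 cells, 52.2 ± 1.39 in SAHA cells and 53.5 ± 0.951 in DMSO cells. It rose by 0.17 with H93 and differed by -0.04 with SAHA, which did not pass. GEMIN7 rose by 0.14 with H93 (adjusted p = 0.0454, limma), a call lost when H93 replicate 1 or 3, SAHA replicate 2 or DMSO replicate 1 or 3 was left out (adjusted p from 0.0538 to 0.194). The GEMIN7 call was also lost with the replicate number as a block (adjusted p = 0.0668), median-ratio rescaling (0.055), a fit to the 6 libraries compared (0.052) and no filter (0.0931). RELB and ZNF296 had differences between -0.10 and -0.02 that did not pass, and RELB passed with SAHA when SAHA replicate 3 (adjusted p = 0.0146) or DMSO replicate 3 (adjusted p = 0.0417) was left out. APOC4 and APOC2, the next apolipoprotein genes after APOC1, were listed at 0 in 8 of 9 libraries, and DMSO replicate 1 held 0.0842 and 0.157 FPKM.

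**Figure D3:**
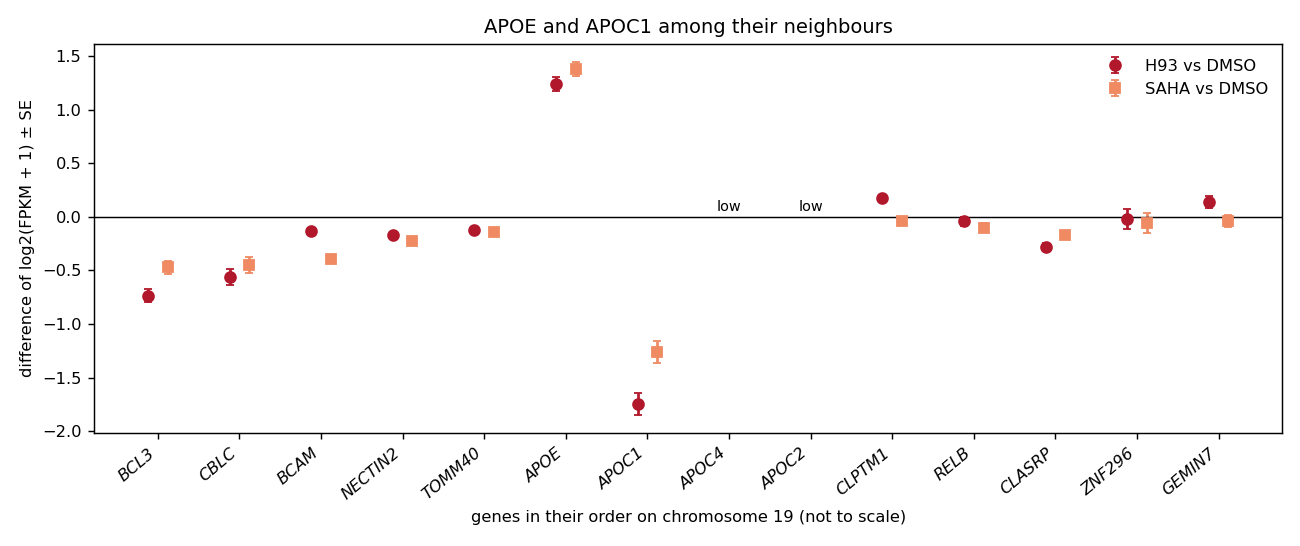
Difference of log2(FPKM + 1) from DMSO, with the SE of the limma fit, for H93 (circles) and SAHA (squares), for genes in their order on chromosome 19 (n = 3 per group). APOE (1.24 and 1.39) and APOC1 (-1.75 and -1.26) lie outside the span of 10 neighbours, from -0.74 to 0.17, and APOC4 and APOC2 were too low to be kept.

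MYLIP, also called IDOL, is the ubiquitin ligase that sends lipoprotein receptors such as VLDLR and LRP8 to degradation, on chromosome 6 from 16129125 to 16148248. It stood at 8.92, 9.44 and 8.01 FPKM in H93 cells, at 8.26, 7.98 and 8.06 in SAHA cells, and at 6.99, 6.897 and 6.71 in DMSO cells. All treated libraries were above all DMSO libraries, and the H93 and SAHA ranges overlapped. MYLIP rose by 0.31 on the log2 scale with H93 (SE 0.0503, adjusted p = 0.000122, limma) and by 0.21 with SAHA (SE 0.0503, adjusted p = 0.00326). H93 minus SAHA was 0.10 (interval -0.01 to 0.21, adjusted p = 0.14, limma), and 0.16 without H93 replicate 3 (adjusted p = 0.021). A list of partners of MYLIP held 6 ubiquitin-conjugating enzymes and deubiquitinases. Of these 6, 5 rose and 0 fell with H93, and 2 rose and 0 fell with SAHA. By comparison, 34.9% of all kept genes rose and 35.0% fell with H93, and 27.4% rose and 31.4% fell with SAHA. The deubiquitinase USP2 averaged 3.61 ± 0.263 FPKM in H93 cells, 3.07 ± 0.311 in SAHA cells and 2.23 ± 0.311 in DMSO cells, and rose by 0.52 with H93 and 0.34 with SAHA. The ubiquitin-conjugating enzyme UBE2D1 rose by 0.29 with H93 and 0.18 with SAHA. USP8 and UBE2D3 rose with H93 by 0.19 and 0.17 and differed by 0.04 and 0.07 with SAHA, which did not pass, although UBE2D3 did when DMSO replicate 1 was left out (adjusted p = 0.0419) and with median-ratio rescaling (adjusted p = 0.0432).

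The transcripts of LRP8 and VLDLR, receptors that MYLIP acts on as proteins, were lower. LRP8 averaged 6.38 ± 0.316 FPKM in H93 cells, 7.57 ± 0.254 in SAHA cells and 11.1 ± 0.195 in DMSO cells, and fell, with log2 differences of -0.71 with H93 and -0.50 with SAHA. VLDLR, named after its values were seen, averaged 4.75 ± 0.225 FPKM in H93 cells, 4.45 ± 0.221 in SAHA cells and 5.47 ± 0.1997 in DMSO cells, and fell, with log2 differences of -0.17 with H93 and -0.25 with SAHA. Of a list of 14 genes for lipoprotein uptake, 11 were kept. Among these 11, 5 rose and 5 fell with H93, and 4 rose and 5 fell with SAHA. All kept genes together had 34.9% up and 35.0% down with H93, and 27.4% up and 31.4% down with SAHA. SCARB1, the receptor for selective uptake from high-density lipoprotein and also an LXR target, averaged 20.9 ± 0.227 FPKM in H93 cells, 23.1 ± 0.452 in SAHA cells and 44.3 ± 1.13 in DMSO cells, and fell, with log2 differences of -1.05 with H93 and -0.91 with SAHA. LRP5, a Wnt coreceptor of the same family, fell, with log2 differences of -0.54 with H93 and -0.39 with SAHA. LRP1, a receptor that takes up APOE, averaged 18.2 ± 0.946 FPKM in H93 cells, 15.6 ± 0.5497 in SAHA cells and 12.4 ± 0.5600 in DMSO cells, and rose by 0.52 with H93 and 0.31 with SAHA. LSR, SORL1 and SORT1 of the same list, also named after their values were seen, rose too. Their log2 differences were 0.51, 0.49 and 0.48 with H93 and 0.31, 0.58 and 0.29 with SAHA.

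LPCAT3 puts polyunsaturated fatty acids into membrane phospholipids, on chromosome 12 from 6976186 to 7018510. It stood at 22.2, 22.9 and 23.1 FPKM in H93 cells, at 19.03, 19.98 and 20.8 in SAHA cells, and at 23.2, 21.6 and 22.5 in DMSO cells. The SAHA libraries were below all others, and H93 and DMSO libraries overlapped. With H93 the difference was 0.02 (interval -0.06 to 0.10, adjusted p = 0.685, limma), and with SAHA LPCAT3 fell by a log2 difference of -0.16 (SE 0.0377, adjusted p = 0.00267, limma). H93 was above SAHA by 0.18 (SE 0.0377, adjusted p = 0.00401, limma). LPCAT3 overlaps EMG1 on the opposite strand, at 18.1 FPKM in H93 cells, 20.03 in SAHA cells and 18.8 in DMSO cells, and C1S, at 0.153 FPKM in H93 cells, 0.341 in SAHA cells and 0.952 in DMSO cells, and their part in the LPCAT3 values was not tested. Among 10 kept genes of 12 listed for phospholipid remodelling, 4 rose and 2 fell with H93, and 3 rose and 3 fell with SAHA. For all kept genes the shares were 34.9% up and 35.0% down with H93, and 27.4% up and 31.4% down with SAHA. LPCAT1, which makes saturated phosphatidylcholine, averaged 27.8 ± 0.3404 FPKM in H93 cells, 30.7 ± 0.664 in SAHA cells and 72.1 ± 1.09 in DMSO cells, and fell, with log2 differences of -1.34 with H93 and -1.21 with SAHA. The acyltransferase MBOAT2 averaged 14.3 ± 0.208 FPKM in H93 cells, 11.2 ± 0.671 in SAHA cells and 8.82 ± 0.246 in DMSO cells, and rose by 0.64 with H93 and 0.31 with SAHA. LPCAT2 rose by 0.50 with H93 and 0.32 with SAHA, and AGPAT3 fell, with log2 differences of -0.27 with H93 and -0.21 with SAHA.

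Set directly against each other, H93 and SAHA differed in 2 of the 6 kept members, APOC1 lower and LPCAT3 higher with H93. In this comparison 31.5% of kept genes passed, 17.6% higher and 13.9% lower. This excess of higher genes was not seen after median-ratio rescaling (1693 higher, 1848 lower) or quantile normalization (1690 higher, 1801 lower). In the fit without the filter ABCG1 was higher with H93, as were 10.8% of all genes. The ranges of H93 and SAHA did not overlap in 3 of the 8 members, against 34.3% of all genes. No member reached a log2 difference of 1 between the compounds, and 0.0174% of kept genes did. For NR1H2, NR1H3, ABCA1, APOE and MYLIP the difference did not pass, and the intervals above do not show that the compounds act alike on them.

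Of 12 kept genes of a list of 13 partners and coregulators of the receptors, 2 rose and 8 fell with H93, and 2 rose and 8 fell with SAHA, with median log2 differences of -0.24 with H93 and -0.18 with SAHA. Over all kept genes 34.9% rose and 35.0% fell with H93, and 27.4% rose and 31.4% fell with SAHA. RXRA, the retinoid X receptor alpha that pairs with both receptors, averaged 7.05 ± 0.178 FPKM in H93 cells, 7.501 ± 0.182 in SAHA cells and 10.6 ± 0.467 in DMSO cells, and fell, with log2 differences of -0.53 with H93 and -0.45 with SAHA. TBL1X and TBL1XR1, subunits of the corepressor complex, fell, with log2 differences of -0.66 and -0.42 with H93 and -0.45 and -0.29 with SAHA. The coactivator NCOA3 averaged 12.7 ± 0.302 FPKM in H93 cells, 10.9 ± 0.397 in SAHA cells and 9.13 ± 0.303 in DMSO cells, and rose by 0.43 with H93 and 0.23 with SAHA.

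Among 13 kept genes of 23 other LXR targets, 3 rose and 6 fell with H93, and 2 rose and 7 fell with SAHA. Their median differences were -0.14 with H93 and -0.11 with SAHA. Beside this and the oxysterol list below, 34.9% of all kept genes rose and 35.0% fell with H93. With SAHA 27.4% of all kept genes rose and 31.4% fell. SREBF1, the regulator of fatty acid synthesis, averaged 4.63 ± 0.262 FPKM in H93 cells, 5.495 ± 0.321 in SAHA cells and 13.7 ± 0.745 in DMSO cells, and fell, with log2 differences of -1.38 with H93 and -1.17 with SAHA. The fatty acid enzymes SCD and FASN, also known targets of SREBF1, fell, with log2 differences of -0.99 and -0.97 with H93 and -0.80 and -0.79 with SAHA. In the same list the 3 genes that rose with H93 were MERTK (0.68), PLIN2 (0.21) and ABCG4 (0.19). MERTK and PLIN2, named after their values were seen, also rose with SAHA, by 0.58 and 0.26. Of 5 kept genes of 12 that make or clear oxysterols, 2 rose and 3 fell with H93, and 1 rose and 3 fell with SAHA. CYP27A1, which makes an oxysterol ligand of the receptors, averaged 6.52 ± 0.334 FPKM in H93 cells, 6.43 ± 0.334 in SAHA cells and 5.39 ± 0.269 in DMSO cells, and rose by 0.23 with H93 and 0.22 with SAHA. HSD3B7, a bile acid enzyme that acts on oxysterols, averaged 4.599 ± 0.2900 FPKM in H93 cells, 6.08 ± 0.0875 in SAHA cells and 7.76 ± 0.714 in DMSO cells, and fell, with log2 differences of -0.64 with H93 and -0.30 with SAHA. The late cholesterol synthesis enzymes DHCR7 and EBP fell, with log2 differences of -0.37 and -0.34 with H93 and -0.38 and -0.24 with SAHA.

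Of 20 kept genes of 22 that move and store sterol inside the cell, 14 rose and 2 fell with H93, and 11 rose and 2 fell with SAHA, with medians of 0.24 with H93 and 0.14 with SAHA. Over all kept genes 34.9% rose and 35.0% fell with H93, 27.4% rose and 31.4% fell with SAHA, and the medians were 0.0016 and -0.015. No test was run on this or the other lists. LIPA, the lysosomal lipase that frees cholesterol from lipoprotein esters, averaged 52.8 ± 1.498 FPKM in H93 cells, 42.6 ± 0.403 in SAHA cells and 36.04 ± 0.399 in DMSO cells, and rose by 0.54 with H93 and 0.23 with SAHA. NPC2, which hands that cholesterol on, averaged 149 ± 3.53 FPKM in H93 cells, 125 ± 2.596 in SAHA cells and 68.8 ± 2.01 in DMSO cells, and rose by 1.10 with H93 and 0.85 with SAHA. The sterol carriers GRAMD1C and STARD4 rose by 0.49 and 0.40 with H93 and by 0.43 and 0.30 with SAHA. Of 6 other kept ABC transporters of subfamilies A and G out of 15, 3 rose and 1 fell with H93, and 2 rose and 2 fell with SAHA. ABCA2 averaged 10.4 ± 0.702 FPKM in H93 cells, 11.4 ± 0.956 in SAHA cells and 19.1 ± 1.097 in DMSO cells, and fell, with log2 differences of -0.82 with H93 and -0.70 with SAHA. ABCA5 and ABCA3 rose by 0.57 and 0.29 with H93 and by 0.28 and 0.26 with SAHA. ABCG4, a sterol exporter related to ABCG1, rose by 0.19 with H93 and differed by 0.11 with SAHA, which did not pass. Of 5 kept genes of 20 other apolipoproteins, 1 rose and 3 fell with H93, and 1 rose and 1 fell with SAHA. CLU, clusterin, averaged 44.3 ± 0.831 FPKM in H93 cells, 45.5 ± 0.731 in SAHA cells and 56.96 ± 1.53 in DMSO cells, and fell, with log2 differences of -0.35 with H93 and -0.32 with SAHA. APOOL, a mitochondrial protein, rose by 0.42 with H93 and 0.34 with SAHA. APOL2 fell by 0.21 with H93 and differed by -0.09 with SAHA, which did not pass. APOO, mitochondrial as well, fell by 0.14 with H93, a call lost when H93 replicate 2 (adjusted p = 0.0572) or DMSO replicate 1 (0.0656) or 3 (0.0768) was left out, and differed by -0.11 with SAHA, which passed when DMSO replicate 2 was left out (adjusted p = 0.012).

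**Figure D4:**
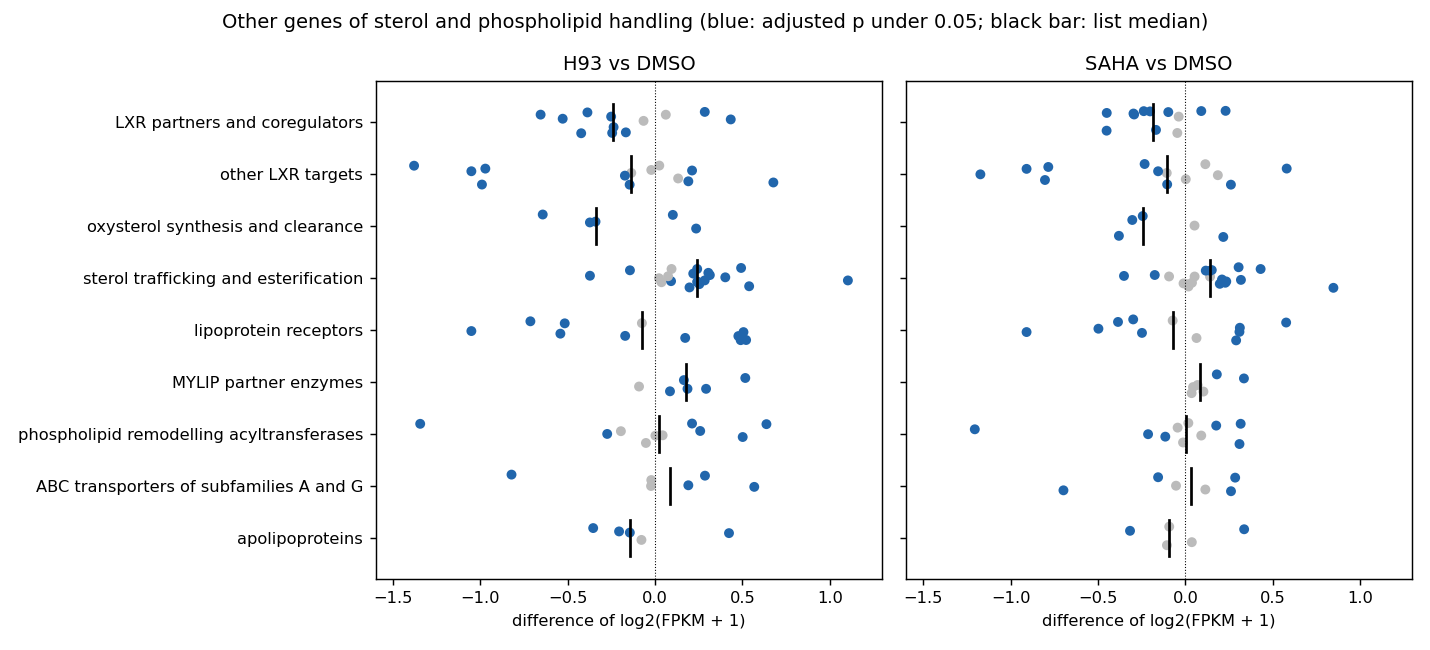
Difference of log2(FPKM + 1) from DMSO for every kept gene of 9 lists (dots, blue where the adjusted p was under 0.05), for H93 (left) and SAHA (right), with the list median as a black bar (n = 3 libraries per group). The median of the sterol trafficking list lies at 0.24 and 0.14 and that of the partners and coregulators at -0.24 and -0.18.

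The kept genes most like 3 of the members over the 9 libraries were found by Pearson correlation of log2(FPKM + 1). Nearest to APOC1 were ZNF362 (r = 0.9945), the desaturase gene FADS2 (r = 0.994) and the citrate carrier gene SLC25A1 (r = 0.9933). FADS2 averaged 48.5 FPKM in H93 cells, 57.3 in SAHA cells and 88.8 in DMSO cells. Nearest to APOE were the spermine synthase gene SMS (r = 0.9954), LAT2 (r = 0.9941) and the glucosylceramide synthase gene UGCG (r = 0.993). LAT2 averaged 15.3 FPKM in H93 cells, 15.3 in SAHA cells and 6.83 in DMSO cells. Nearest to MYLIP were PIGF (r = 0.987), EML5 (r = 0.9811) and PRSS3 (r = 0.9802). The libraries fall into 3 groups, so these values compare group means for the most part, and 906 genes reached r = 0.95 with APOC1, 422 with APOE and 82 with MYLIP.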

How the data were processed

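RNA was extracted with TRIzol and made into libraries with a stranded mRNA kit, per the labels' protocols. The authors deposited 1 table of FPKM per gene and library, without pooling replicates. Trimmomatic 0.36, HISAT2, Cufflinks and GRCh38.p13 are listed, without roles, in the submitters' processing notes, and the sources used here give neither annotation nor strand setting. Groups came from sample titles and columns were matched by the description labels.

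Members, gene lists and tests were chosen with earlier results of these data known. Values were taken as log2(FPKM + 1) for genes with 1 FPKM or more in 3 or more of the 9 libraries. All libraries entered one model of group means with a mean-variance trend in limma 3.58.1 (R 4.3.3; 6 residual and 6.05 prior degrees of freedom), tested two-sided with Benjamini-Hochberg adjustment over 11525 genes, and the procedure was tested on simulated data. "Rose" and "fell" mean an adjusted p under 0.05. ABCA1 and ABCG1 come from the same model without the filter. Lists are given by counts and medians, with no test. Named were all members, all listed neighbours on chromosome 19, and up to 4 genes per list with the largest change with H93. The 3 genes most like each of 3 members were named as well. VLDLR, LSR, SORL1, SORT1, MERTK and PLIN2 were named outside this rule after their values were seen. Relative depth is the most common ratio of values under 0.1 FPKM between a library and DMSO replicate 1. Some genes are not reported here. Absolute depth is unknown, so no counting intervals were computed. The labels give no batch. Positions come from GENCODE release 29 and promoter windows from RefSeq, and the starts of the same gene can differ between them. Tables and figures were made in Python 3.11.15 with pandas 2.3.3 and matplotlib 3.10.9.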

Additional observations from a re-analysis of the deposited data

How the results depend on the processing

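The fits were repeated with a pseudocount of 0.1 or 5, without the filter, with median-ratio rescaling or quantile normalization, on the 6 libraries of a comparison only, with a replicate block, and without each library in turn. In all of these 5 kept members were called for H93 against DMSO and 5 for SAHA against DMSO, and for H93 against SAHA 2, or up to 3 where a library was left out. Leaving out a library gave between 7585 and 8090 genes called for H93 against DMSO (8050 with all), between 6175 and 6773 for SAHA against DMSO (6780 with all) and between 2794 and 3554 for H93 against SAHA (3629 with all). With the replicate block 7986, 6649 and 3426 genes were called in these comparisons, and no member's call changed. Same-numbered libraries did not deviate together (correlations of their deviations from -0.098 to 0.036), so their numbers were not used to pair them. Repeats for ABCA1 and ABCG1 with other choices were added after seeing the data. Of 378 repeats of a member's difference, 372 stayed called or not called as before, and 0 reversed a call. Another 3 lost the call (all ABCG1), and 3 gained it with a library left out (NR1H3, APOE and MYLIP, H93 against SAHA). The cause of these changes was not tested. Differences that were not called could change sign, as LPCAT3 with H93 did without DMSO replicate 2 (0.018 to -0.0074). Among 3060 repeats for single genes, members included, 43 uncalled values changed sign. ABCA1 and ABCG1 lie near or under 1 FPKM, where the pseudocount sets the size of a log2 difference, and it also moves APOE and APOC1 across a log2 difference of 1 but not across the test's threshold.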
